A study of Mus musculus with 4 samples.

Results

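Genes of the interleukin-6 (IL-6) cytokine family and their receptor chains were followed in mouse bone marrow dendritic cells (DC). The members were the ligand genes Il6, Lif, Osm, Il11 and Clcf1 and the receptor chain genes Il6ra, Il6st, Lifr and Osmr, chosen by gene symbol. A probe set, a group of array probes for 1 transcript, counted as a member when its annotation held 1 of these genes and no other. Of the 9 genes, 8 were represented, by 17 of the 22626 probe sets tested; Osm had no such probe set and was not analysed here. RNA was measured on 2 arrays of NKT-modulated DC and 2 arrays of immature DC, all of strain C57BL/6. Natural killer T (NKT) cells are T cells that recognise lipids on CD1d. CD11c cells, which carry a DC integrin, are named in the design text as the source of the RNA. The labels give neither the age of the mice nor the length or manner of the NKT modulation, and it is not known whether arrays of a group are from separate cultures. The design text speaks of triplicates, repeated, and of an array design with more probe sets than the 22690 rows of the table, and how the 2 arrays per group relate to those repeats is not stated. A p-value here thus reflects just the spread among 4 arrays, which may be technical.

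IL-6 family cytokines share a signalling chain, gp130, encoded by Il6st. IL-6 binds the alpha chain encoded by Il6ra before it engages gp130, LIF brings gp130 together with LIFR, and mouse oncostatin M, the product of Osm, brings it together with OSMR. The receptors act through JAK kinases and mainly the transcription factor STAT3, and SOCS3 binds gp130 and shuts the signal down. IL-6 made by mature DC is known for steering T cells towards the IL-17 producing fate when TGF-beta is present.

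Windows of 250 bases before the gene start are shown for Il6 and Lif, the genes of the family that rose, and for Il6st, the shared receptor chain, which did not pass the test. They come from RefSeq on the GRCm38.p6 build, at chr5:30012864-30013113, chr11:4257318-4257567 and chr13:112463820-112464069, all on the plus strand and read 5′ to 3′. Capitals mark matches, on either strand, to GGGANTTTC (NF-kB), TTNNGCAA (C/EBP), TGANTCA (AP-1), TGACGT (part of the CRE) or TTCNNNGAA (STAT).
Il6: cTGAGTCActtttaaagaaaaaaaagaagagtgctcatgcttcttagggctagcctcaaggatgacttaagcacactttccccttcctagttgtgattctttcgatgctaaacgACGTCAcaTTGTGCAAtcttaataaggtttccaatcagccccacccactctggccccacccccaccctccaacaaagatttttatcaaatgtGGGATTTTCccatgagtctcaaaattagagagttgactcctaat
Lif: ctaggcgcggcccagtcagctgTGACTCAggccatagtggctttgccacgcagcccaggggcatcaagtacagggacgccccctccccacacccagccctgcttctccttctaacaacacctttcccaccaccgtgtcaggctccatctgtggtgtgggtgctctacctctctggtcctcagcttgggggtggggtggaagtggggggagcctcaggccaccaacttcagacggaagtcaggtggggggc
Il6st: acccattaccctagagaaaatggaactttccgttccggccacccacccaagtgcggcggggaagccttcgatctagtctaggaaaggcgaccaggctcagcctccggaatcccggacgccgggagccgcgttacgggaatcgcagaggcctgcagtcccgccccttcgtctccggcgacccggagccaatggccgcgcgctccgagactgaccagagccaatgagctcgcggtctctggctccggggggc

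The Il6 window held 4 of the 5 motifs. The NF-kB match lay 44 to 36 bases before the start, the C/EBP match 128 to 121 bases before it, the CRE part 136 to 131 bases before it and the AP-1 match 249 to 243 bases before it. The Lif window held 1 match, to the AP-1 motif, 228 to 222 bases before the start, and the Il6st window held none. Among all 32851 windows of this length, 0.941% held the NF-kB motif, 9.56% the C/EBP motif, 6.75% the AP-1 motif, 6.47% the CRE part and 7.02% the STAT motif. Of the 9 genes, 7 had windows, 9 in all, and besides Il6 and Lif 1 of the 2 Il11 windows held a match, to AP-1. The motifs were picked with the Il6 window in view, and a match is a string of letters, not a bound site.

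Il6 and Lif rose steeply, and no other member passed the test. Il6, the founding cytokine of the family, gave signals of 5051 and 3915 in NKT-modulated DC, against 148 and 203 in immature DC. Lif, the gene of leukaemia inhibitory factor, gave signals of 1493 and 1369.7 in NKT-modulated DC, against 58.9 and 37.0 in immature DC, on its probe set 1421207_at. For both genes the gap between the groups was far wider than the spread within a group. On the scale of normalized log2(signal + 16), Il6 rose by 4.65 ± 0.14 (± is the SE here and below, with n = 2 arrays in each group), a 25.1-fold change with a 95% interval of 19.7 to 31.9 and adjusted p = 4.51e-05. Lif rose by 4.56 ± 0.20, a 23.6-fold change with a 95% interval of 16.95 to 32.9 and adjusted p = 1.28e-04. Since the immature signals of Lif are low, its log2 change depended on the pseudocount, at 4.95 with 1 and 3.79 with 64. Among all probe sets tested, 35 had a larger rise than that of Il6, and 39 a larger one than that of Lif. These tests are those of limma, with Benjamini-Hochberg adjustment over all probe sets and a threshold of 0.05.

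**Figure D1:**
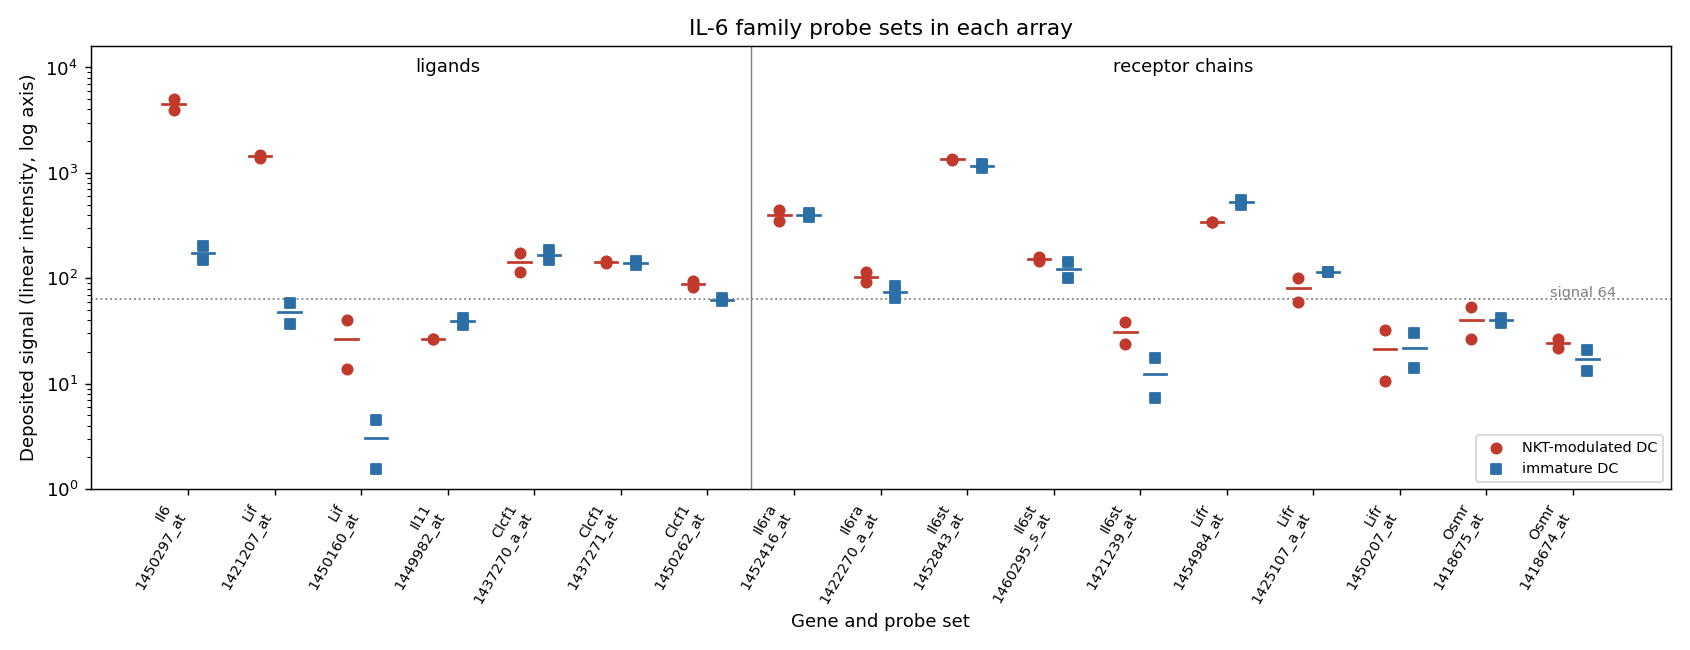
Deposited signal (linear intensity on a log axis) of the 17 IL-6 family probe sets in each array, with NKT-modulated DC as circles at left, immature DC as squares at right and a short line at the mean of each pair. Il6 and the Lif probe set 1421207_at stand far above their immature signals, while the other probe sets lie close to theirs or at signals under 64 (dotted line).

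The other probe set of Lif, 1450160_at, was annotated to the same accession as the first but was dim. It gave signals of 39.8 and 13.9 in NKT-modulated DC, against 1.56 and 4.55 in immature DC. All NKT-modulated signals were above the immature ones, and the change was 1.08 ± 0.32 (adjusted p = 0.0942). Without NKT-modulated replicate 2 it was 1.51 and passed, with adjusted p = 0.0493, and without NKT-modulated replicate 1 it was 0.67 (adjusted p = 0.242). Its alternatives ranged from adjusted p = 0.0493 to 0.290. The pseudocount of 16 shrinks changes at such signals, and with a pseudocount of 1 the change was 2.69.

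Neither of the remaining ligand genes passed. Il11, a cytokine known from stromal cells and platelet formation, was dim, with signals of 26.6 and 26.6 in NKT-modulated DC, against 42.4 and 35.7 in immature DC. The NKT-modulated signals were both lower, but the change of -0.37 ± 0.25 had adjusted p = 0.439 and a 95% interval of -0.97 to 0.24. Clcf1 encodes cardiotrophin-like cytokine, which signals through gp130 and LIFR. Its brightest probe set, 1437270_a_at, gave 174 and 114 in NKT-modulated DC, against 149 and 187 in immature DC. The groups overlapped, and the change was -0.03 ± 0.24 (adjusted p = 0.967), with a 95% interval of -0.62 to 0.56. The other Clcf1 probe sets had changes of 0.18 ± 0.20 (1437271_at) and 0.48 ± 0.25 (1450262_at), with adjusted p = 0.648 and adjusted p = 0.305. On 1450262_at the signals did not overlap, at 82.1 and 95.2 in NKT-modulated DC, against 65.2 and 60.3 in immature DC.

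Of the receptor chains, none of the 10 probe sets passed. Il6st, the gene of gp130, was the one closest to the threshold. Its brightest probe set, 1452843_at, gave signals of 1359.6 and 1334 in NKT-modulated DC, against 1103 and 1216 in immature DC. The groups did not overlap, yet the change was small, at 0.32 ± 0.09 (adjusted p = 0.0682), with a 95% interval of 0.11 to 0.53. It passed with other scalings, at 0.39 after median scaling (adjusted p = 0.0460) and 0.39 after cyclic loess (adjusted p = 0.0414), and had 0.21 with adjusted p = 0.330 when the deposited signals were not normalized further, the highest of its alternatives. The probe set 1460295_s_at of Il6st had a change of 0.49 ± 0.22 (adjusted p = 0.247), and the dim 1421239_at one of 0.72 ± 0.29 (adjusted p = 0.183). The signals of 1460295_s_at were 146 and 161 in NKT-modulated DC, against 101 and 143 in immature DC. Those of 1421239_at were 38.6 and 23.6 in NKT-modulated DC, against 17.5 and 7.26 in immature DC. All 3 probe sets of Il6st thus had higher signals in both NKT-modulated arrays, but signals did not overlap between groups for 53.5% of all probe sets either. Each of the 3 had a positive change in every alternative that tested it, though the alternatives reuse the same 4 arrays.

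Il6ra encodes the chain that makes a cell responsive to IL-6 itself. On its brightest probe set, 1452416_at, the signals were 348 and 448 in NKT-modulated DC, against 415 and 383 in immature DC. They overlapped, and the change was 0.20 ± 0.18 (adjusted p = 0.570), with a 95% interval of -0.24 to 0.64, which leaves out a rise or fall of 2-fold. The other probe set, 1422270_a_at, gave 115 and 91.8 in NKT-modulated DC, against 83.9 and 64.9 in immature DC. Here the groups did not overlap, and the change was 0.49 ± 0.25 (adjusted p = 0.300).

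Lifr, the chain that pairs with gp130 to bind LIF, was lower in NKT-modulated DC in value but did not pass. Its brightest probe set, 1454984_at, gave 340.5 and 342 in NKT-modulated DC, against 492 and 557 in immature DC. The groups did not overlap, and the change was -0.40 ± 0.12 (adjusted p = 0.0949), with a 95% interval of -0.69 to -0.11. It stayed negative in all 11 alternatives, from -0.60 to -0.34, with adjusted p = 0.0550 as the lowest. The probe set 1425107_a_at had a change of -0.39 ± 0.31 (adjusted p = 0.517), with signals of 59.4 and 101 in NKT-modulated DC, against 115 and 116 in immature DC. That value rested on NKT-modulated replicate 1, without which it was -0.0024 (adjusted p = 0.998). The dim 1450207_at had -0.04 ± 0.41 (adjusted p = 0.975), with overlapping signals of 10.5 to 32.6 in NKT-modulated DC and 14.1 to 29.98 in immature DC.

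Osmr, the chain for oncostatin M, was dim on both probe sets. On 1418675_at the signals were 53.6 and 26.7 in NKT-modulated DC, against 38.0 and 42.2 in immature DC. On 1418674_at they were 21.6 and 26.6 in NKT-modulated DC, against 20.9 and 13.1 in immature DC. The changes were -0.03 ± 0.31 (adjusted p = 0.974) and 0.29 ± 0.26 (adjusted p = 0.566). In the GRCm38.p6 gene table Osmr and Lifr are neighbours on chromosome 15, and Lif and Osm are neighbours on chromosome 11, in both cases with 0 protein-coding genes starting between them.

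**Figure D2:**
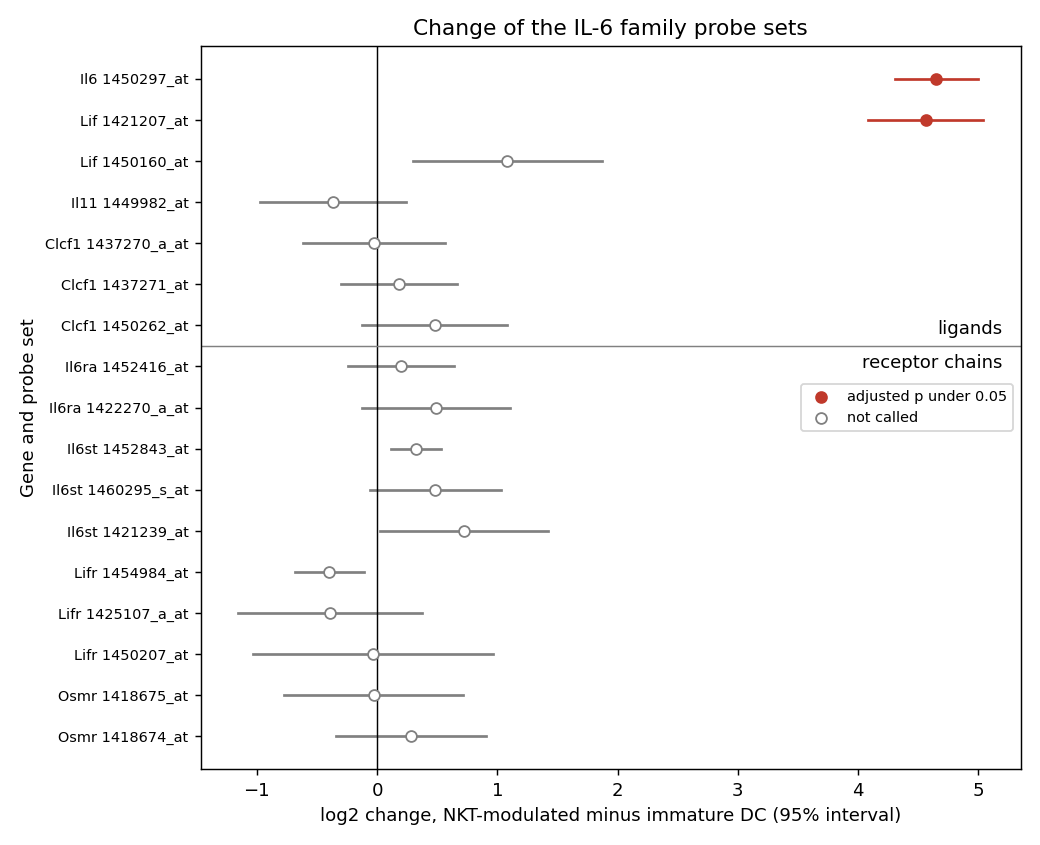
log2 change (NKT-modulated minus immature DC, on normalized log2(signal + 16)) of each IL-6 family probe set, with its 95% interval from limma and n = 2 arrays per group. The intervals of Il6 and of Lif 1421207_at lie above 4, and those of all 10 receptor chain probe sets lie below 1.5.

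Set side by side, 2 of 7 ligand probe sets were called higher and 0 lower, whereas 0 of 10 receptor chain probe sets were called in either direction by limma. At an unadjusted p under 0.05, 3 ligand probe sets were higher and 0 lower, and 2 receptor chain probe sets were higher and 1 lower. At that unadjusted p, 2460 of all 22626 probe sets were higher and 3241 lower. By the adjusted p, 5.36% of all probe sets were called higher and 5.7% lower. The 2 calls come from few probe sets, and their share is given beside this background as a description only. Signals did not overlap between the groups for 12 of the 17 member probe sets, against 53.5% of all probe sets. The median log2 change was 0.48 over the ligand and 0.24 over the receptor chain probe sets, against -0.03 over all probe sets. Changes of receptor chain probe sets ran from -0.40 to 0.72. The 95% interval left out a 2-fold rise for 7 of 10 and a 2-fold fall for 8 of 10. Both counts include dim probe sets, where the pseudocount shrinks the change and its SE. With a pseudocount of 1, Osmr 1418675_at, Osmr 1418674_at and Lifr 1450207_at had -0.05 ± 0.46, 0.49 ± 0.53 and -0.12 ± 0.75. For dim probe sets the intervals thus cannot decide whether a 2-fold change was present. Of the 6 receptor chain probe sets that averaged 64 or more, 3 had an interval within 2-fold on both sides. Signals averaged under 64 for 2 of 7 ligand and 4 of 10 receptor chain probe sets, where small changes are not measured well.

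The arrays themselves were close in depth of signal, though both NKT-modulated medians lay below both immature ones. Their median signals were 136 and 129 in NKT-modulated DC and 146 and 158 in immature DC, and log2 signals correlated across probe sets with r = 0.985 within NKT-modulated DC, r = 0.987 within immature DC and r = 0.960 to 0.965 between groups. Defining DC genes were bright in every array, and 0 of 12 averaged under 64 in either group. The lists below were written from general knowledge of the pathway, but with earlier results of these data known. Each gene stands for its brightest probe set. Over all 12393 genes 5.99% were called higher and 6.88% lower, with a median change of -0.04.

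T lineage transcripts were higher in the same arrays as Il6 and Lif. Of 15 measured T and NKT cell markers, 10 rose, with a median change of 2.31, and their summed signals were 6430 to 8232 in NKT-modulated DC, against 1374 to 1443 in immature DC. Cd3g, a chain of the T cell receptor complex, gave 1401 and 1046 in NKT-modulated DC, against 19.0 and 15.4 in immature DC, a rise of 5.26 ± 0.20 (adjusted p = 9.17e-05). Gata3, Thy1 and Icos rose by 4.72 ± 0.19, 4.0 ± 0.19 and 2.31 ± 0.13. The 5 markers not called on their brightest probe set were Cd2, Cd5, Cd6, Zap70 and Zbtb16. That of Zbtb16 changed by 0.13 ± 0.29 (adjusted p = 0.839). Of Zap70 and of Zbtb16, 1 of 2 probe sets was called higher. With pseudocounts of 64 and 1 the rise of Cd3g was 4.02 and 6.11, and that of Gata3 3.51 and 5.56. No marker was listed at a signal of 0, and 2 of 15 averaged under 64 in NKT-modulated DC, against 9 of 15 in immature DC. Lif is also made by activated T cells, and the part of T lineage RNA in these rises was not tested. In RNA of whole samples, a change in the share of a cell type and a change of RNA per cell cannot be told apart.

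Markers of other cell types were counted in the same way. Of 11 markers of fibroblasts and stromal cells, which are known makers of Il6, Lif and Il11, 1 rose, the proteoglycan gene Lum, by 1.94 ± 0.27. Their summed signals were 1031 to 1061 in NKT-modulated DC, against 876 to 1113 in immature DC, and 8 of the 11 averaged under 64 in NKT-modulated DC and likewise in immature DC. The brightest, Postn, gave 437 and 587 in NKT-modulated DC, against 422 and 683 in immature DC. Dcn gave 49.0 and 20.9 in NKT-modulated DC, against 7.95 and 7.16 in immature DC (adjusted p = 0.0905). Of 8 mast cell and basophil markers, 1 rose, Hdc, the histamine-making enzyme, by 3.38 ± 0.22, with signals of 362 and 321 in NKT-modulated DC, against 19.6 and 22.4 in immature DC, which make up most of the difference in the sums. The summed signals were 521 to 525 in NKT-modulated DC, against 163 to 186 in immature DC. Of 6 B cell markers, 1 rose, Cd79b, by 2.47 ± 0.23 (sums of 458 to 519 in NKT-modulated DC and 258 to 277 in immature DC). Of 8 neutrophil markers, 3 rose (sums of 1844 to 2059 in NKT-modulated DC and 944 to 1135 in immature DC), led by the chemokine receptor Cxcr2 with 2.69 ± 0.17. The count was 1 when NKT-modulated replicate 1, NKT-modulated replicate 2 or immature replicate 1 was left out, and without the intensity trend or without further normalization. Of 5 NK cell markers, 1 rose, Gzma, by 1.69 ± 0.26 (sums of 145 to 180.4 in NKT-modulated DC and 65.1 to 66.5 in immature DC), and it had adjusted p = 0.0595 without NKT-modulated replicate 1 and adjusted p = 0.0678 without immature replicate 2. Of 11 macrophage and monocyte markers, 1 rose and 5 fell (sums of 40425 to 40766 in NKT-modulated DC and 41066 to 42325 in immature DC), with Mertk rising by 1.09 ± 0.09 and Ccr2 falling by 2.03 ± 0.21. Without NKT-modulated replicate 1 or without the intensity trend the falls numbered 1, without NKT-modulated replicate 2 they numbered 2, and after median scaling 3. Of 12 DC markers, 2 rose and 0 fell, with Batf3 rising by 1.74 ± 0.09 and Cd83 by 0.94 ± 0.08 (sums of 69196 to 75626 in NKT-modulated DC and 61156 to 65939 in immature DC). At an unadjusted p under 0.05, 3 DC markers were higher and 2 lower. The lower ones were Cd209a, at -0.70 ± 0.18 (adjusted p = 0.0659), and Flt3, at -0.54 ± 0.16 (adjusted p = 0.0875). After median scaling, or without further normalization, the falls of DC markers numbered 1.

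Other family genes that could be read were few. Of 2 ligand genes, Ebi3, a subunit of the cytokine IL-27, rose by 0.59 ± 0.11 (adjusted p = 0.0240), with signals of 1518 and 1254 in NKT-modulated DC, against 908 and 1083 in immature DC. It did not pass without 1 of several arrays, with adjusted p = 0.130, 0.0938 and 0.0656 without NKT-modulated replicate 1, immature replicate 1 and immature replicate 2. It also had adjusted p = 0.0983 without further normalization and adjusted p = 0.116 without limma's trend of variance with intensity. Ctf1, the gene of cardiotrophin-1, had a change of -0.02 ± 0.37. Of 3 receptor chain genes outside the members, 2 rose. Il31ra, which pairs with OSMR to bind IL-31, gave 123 and 135 in NKT-modulated DC, against 34.5 and 21.4 in immature DC, a rise of 1.83 ± 0.27 (adjusted p = 0.00992). Without NKT-modulated replicate 2 it had adjusted p = 0.0518, and without immature replicate 2 adjusted p = 0.0575. Il27ra, which pairs with gp130 to bind IL-27, gave 236 and 196 in NKT-modulated DC, against 79.4 and 94.8 in immature DC, a rise of 1.33 ± 0.20 (adjusted p = 0.0115). Without NKT-modulated replicate 1 and without immature replicate 1 it had adjusted p = 0.0738 and adjusted p = 0.0641. Il27ra is also a receptor of T cells, whose markers rose in these arrays.

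Downstream of gp130, the 3 measured STAT genes and Jak2 rose. The other kinase and adaptor genes were not called on their brightest probe set. Of the adaptor gene Gab1, 1 of 3 probe sets was called lower, while its brightest changed by -0.84 ± 0.27 (adjusted p = 0.115). Of 11 measured genes of JAK, STAT and adaptor signalling, 4 rose and 0 fell, around a median change of 0.03; at an unadjusted p under 0.05 it was 5 and 1. Stat3, the main transcription factor of the pathway, gave 2738 and 2693 in NKT-modulated DC, against 1227 and 1621 in immature DC, a rise of 1.01 ± 0.10 (adjusted p = 0.00271). Stat5a rose by 1.88 ± 0.12 (adjusted p = 5.47e-04). Stat5b and the kinase gene Jak2 rose by 0.58 ± 0.13 (adjusted p = 0.0423) and 0.44 ± 0.07 (adjusted p = 0.0161). The count of rises was 2 without NKT-modulated replicate 1, without NKT-modulated replicate 2 or without immature replicate 1. Jak2 then had adjusted p = 0.115, 0.0870 and 0.0568, and Stat5b adjusted p = 0.192, 0.0601 and 0.116. Stat5b also had adjusted p = 0.141 without immature replicate 2. Without the intensity trend Jak2 had adjusted p = 0.140 and Stat5b adjusted p = 0.128. Stat5b likewise did not pass without further normalization (adjusted p = 0.168) or with a pseudocount of 64 (adjusted p = 0.0515).

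Genes listed here as inhibitors of JAK and STAT signalling, not all of them specific to gp130, rose more often than they fell. Among 9 such genes 5 rose and 1 fell, and their median change was 0.42; without NKT-modulated replicate 1 the rises numbered 3. Socs3, the inhibitor that binds gp130, gave 8049.6 and 7009 in NKT-modulated DC, against 1955 and 2204 in immature DC. It rose by 1.86 ± 0.08 (adjusted p = 1.20e-04), and all 3 of its probe sets were called. Socs1 and Socs2, which inhibit further cytokine receptors, rose by 1.96 ± 0.18 and 0.78 ± 0.07. Ptpn6, the gene of the phosphatase SHP-1, fell by 0.80 ± 0.08 (adjusted p = 0.00235) on 1 of its 2 probe sets, the brighter one, with signals of 2239.5 and 2266 in NKT-modulated DC, against 3760.1 and 4233 in immature DC. Without the intensity trend 2 inhibitors rose and 0 fell, with Socs2 at adjusted p = 0.0521 and Ptpn6 at adjusted p = 0.0501.

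Genes known to be induced through STAT3 went partly up. Of 25, 10 rose and 2 fell, and the median change was 0.43. Without NKT-modulated replicate 1, 6 rose and 1 fell, and without NKT-modulated replicate 2 the falls numbered 1. Without the intensity trend 5 rose and 1 fell. Besides Socs3, the rises with the smallest p were those of Fgl2, an immunoregulatory fibrinogen-like protein, by 1.24 ± 0.09, Saa3, an acute phase protein, by 1.36 ± 0.12, and Bcl3, an NF-kB cofactor, by 1.77 ± 0.16. Saa3 gave 778 and 778 in NKT-modulated DC, against 295 and 373 in immature DC. The falls, named after their values were seen, were of the cyclin gene Ccnd1, by 1.33 ± 0.16, and the transcription factor gene Cebpd, by 0.58 ± 0.11. Cebpd was called on just the brighter of its 2 probe sets. Many of these genes are also induced by other cytokines and by NF-kB.

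Regulators of Il6 itself also moved. Of 14 genes that control Il6 transcription or the decay of its mRNA, 7 rose and 1 fell, around a median change of 0.37. Rel, an NF-kB subunit, rose by 1.57 ± 0.13, and Nfkbiz, an NF-kB cofactor needed for Il6 induction, by 1.42 ± 0.14. Arid5a, which stabilises Il6 mRNA, gave 854 and 743 in NKT-modulated DC, against 355 and 395 in immature DC, a rise of 1.23 ± 0.12 (adjusted p = 0.00218). Atf3, known to restrain Il6 transcription, rose by 2.00 ± 0.14. Zc3h12a, whose product regnase-1 cuts Il6 mRNA, had a change of 0.27 ± 0.20 (adjusted p = 0.485). The fall was that of Cebpd, and it did not pass without NKT-modulated replicate 1 or without NKT-modulated replicate 2, when the falls numbered 0, nor without the intensity trend. Of 4 receptor shedding genes none was called by limma, and at an unadjusted p under 0.05 it was 1 higher and 1 lower. Adam10 and Rhbdf1 had changes of -0.28 ± 0.08 (adjusted p = 0.101) and 0.63 ± 0.23 (adjusted p = 0.152), Adam10 encoding a protease that can release IL-6 receptor from the cell surface. With probe sets of mean signal under 64 left out, Adam10 passed as lower (adjusted p = 0.0498), and after median scaling its change was -0.06 (adjusted p = 0.751).

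Genes listed as inducers and partners of IL-6 in T cell differentiation, mostly cytokine genes, were largely higher as well. Of 10 measured genes of this list, 7 rose and 1 fell, around a median change of 2.50. The gene that fell was called on just the brighter of its 2 probe sets. Il1b, Il1a and Tnf, inflammatory cytokines that induce Il6, rose by 3.01 ± 0.14, 3.71 ± 0.18 and 2.22 ± 0.10. Il17a, the product of T cells that IL-6 helps to shape, gave 7781 and 5015 in NKT-modulated DC, against 45.0 and 57.4 in immature DC, a rise of 6.54 ± 0.20. Tgfb1, the partner of IL-6 in that step, had a change of -0.06 ± 0.09 (adjusted p = 0.777). The fall was of Ahr, the aryl hydrocarbon receptor gene, by 0.66 ± 0.09 (adjusted p = 0.00867), and the falls numbered 0 without NKT-modulated replicate 1, without NKT-modulated replicate 2 or without the intensity trend.

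**Figure D3:**
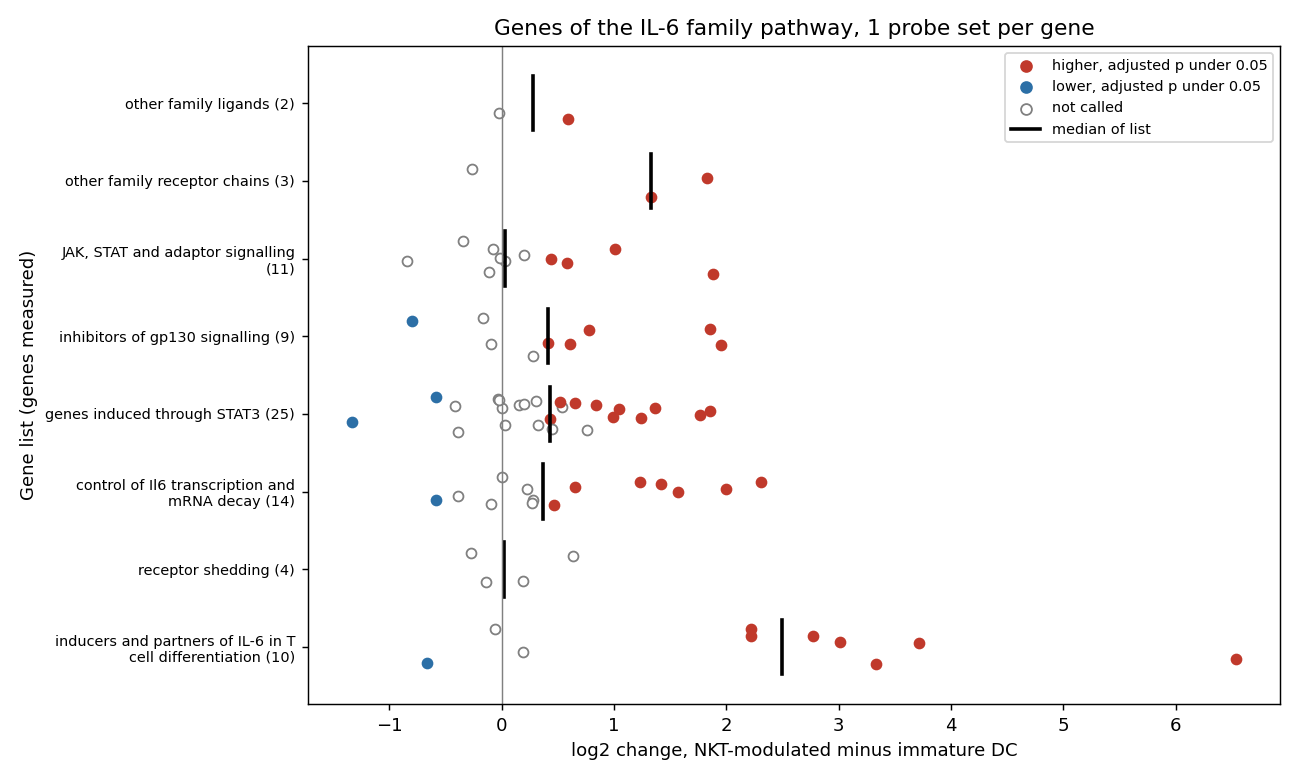
log2 change (NKT-modulated minus immature DC) of each measured gene of the 8 pathway lists, 1 point per gene at its brightest probe set, filled where limma's adjusted p was under 0.05, with a black line at the median of each list. The list of inducers and partners of IL-6 in T cell differentiation has the highest median, 2.50, and the receptor shedding genes hold no filled point.

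By pattern over the 4 arrays, the genes closest to Il6 were Gata3, Iigp1 and Hspa1a, with Euclidean distances of 0.23, 0.23 and 0.28 between centred log2 values. Iigp1, an interferon-inducible GTPase gene, gave 2513 and 2251 in NKT-modulated DC, against 84.6 and 89.4 in immature DC. Hspa1a is a heat shock gene whose probe set may also read its near-identical paralog. Those closest to Lif were Crabp2, a retinoic acid binding protein gene, Gimap4, a GTPase gene of lymphocytes, and Iigp1 again, with distances of 0.29, 0.31 and 0.33. With 2 arrays per group such likeness mainly rests on the size of the change, and that depended on the pseudocount for genes that were dim in immature DC. Gata3 changed by 5.56 and Il6 by 4.77 with a pseudocount of 1, and by 3.51 and 4.32 with a pseudocount of 64. Crabp2 changed by 6.13 and Lif by 4.95 with a pseudocount of 1, and by 3.07 and 3.79 with a pseudocount of 64.

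**Figure D4:**
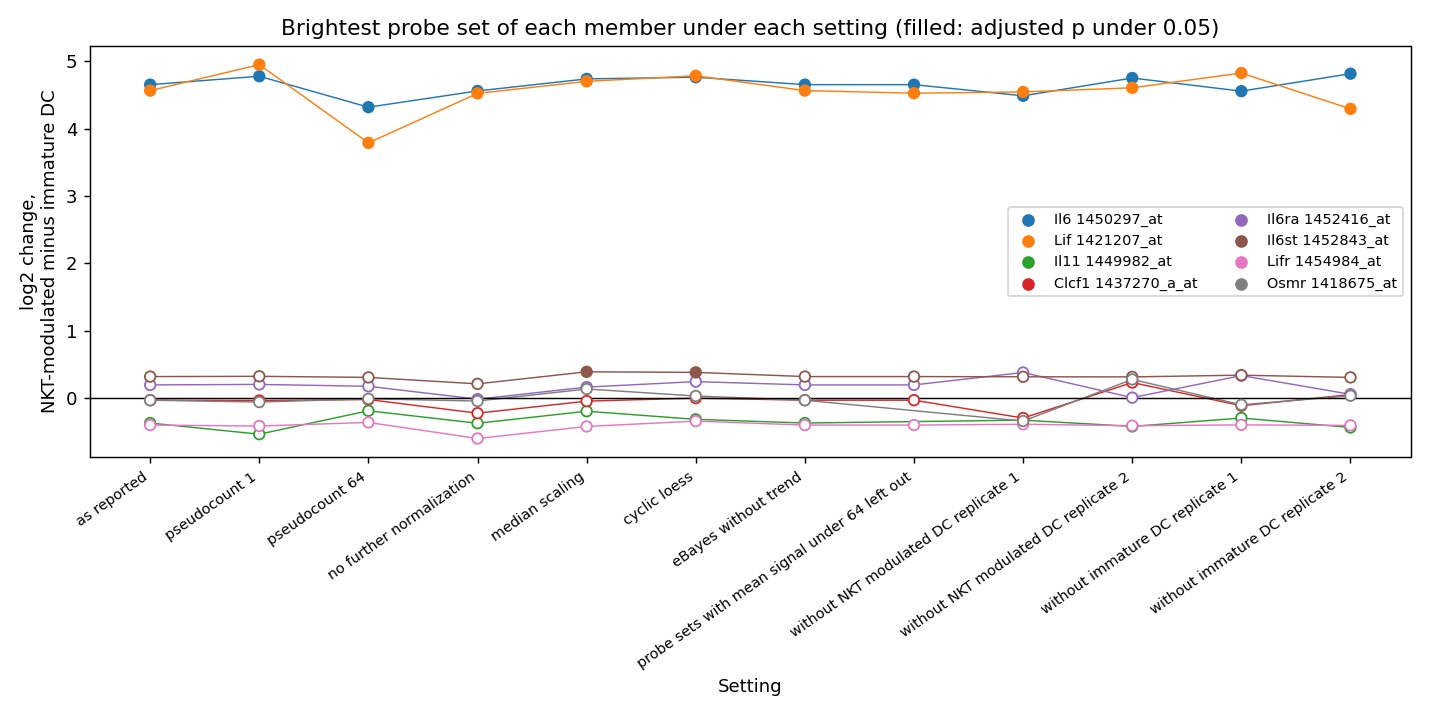
log2 change (NKT-modulated minus immature DC) of the brightest probe set of each member under each processing setting, filled where limma's adjusted p was under 0.05. Il6 runs from 4.32 to 4.81 and Lif from 3.79 to 4.95 in the alternatives, filled in each, while Il6st is filled after median scaling and after cyclic loess and the others nowhere.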

How the data were processed

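The authors deposited 1 linear intensity per probe set and array, in 22690 rows; images were analysed with GCOS, per the submitters' processing notes. Detection calls were not used, and the summary algorithm and scaling target are not given in those notes. Log transformation is mentioned in the design text, but the deposited intensities are linear. From them, log2(signal + 16) was computed and quantile normalized, the 64 controls were dropped, and 22626 probe sets were tested with limma 3.58.1 in R 4.3.3 (intensity trend, two-sided, 2 residual and 4.13 prior degrees of freedom), with Benjamini-Hochberg adjustment over all of them. This fit was tested on simulated data. The pseudocount makes fold changes of dim genes too small. The number of arrays limits the precision.

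The platform annotation gave 20380 probe sets 1 symbol, 691 several and 1555 none here; 20351 symbols were brought up to date with a RefSeq table of GRCm38.p6. Genes in lists stand for their brightest probe set. The members and lists were chosen with earlier results of these data known. Named are all member probe sets and the 3 genes closest to Il6 and to Lif. In each list the called genes of smallest p are named (at most 4, or at most 2 uncalled ones). Ctf1, Postn, Dcn, Zc3h12a, Tgfb1, Ahr, Ccnd1, Cebpd, Gab1, Cd2, Cd5, Cd6, Zap70, Zbtb16, Cd209a and Flt3 were named after their values were seen. Alternatives were pseudocounts of 1 and 64, other normalizations, no intensity trend, a filter on mean signals under 64, an adjusted p under 0.001, the mean of all probe sets of a gene, and each array left out.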

Additional observations from a re-analysis of the deposited data

How the results depend on the processing

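The 2 member probe sets called higher, Il6 and Lif 1421207_at, remained called in the 11 alternatives that refitted them, and at an adjusted p under 0.001; their highest adjusted p was 0.00410 and 0.00545, both without the intensity trend. The number of member probe sets called lower was 0 in each of these. Over all probe sets 2501 were called; it was 1045 without the intensity trend, 233 at an adjusted p under 0.001, and 1070 to 1401 with 1 array left out. With an array left out, the lone array of its group is assumed to vary like the others. The share of calls that were higher was 48.5%, and 36.6% without further normalization, 58.3% after median scaling, 56.2% after cyclic loess, 59.8% without the intensity trend and 84.5% at an adjusted p under 0.001, while the median change of all probe sets stayed between -0.10 and 0.08. Of 416 list counts under the alternatives, 349 lay within 1.5 times the reported count and 67 did not. No paired analysis was possible because the labels give no replicate number that the groups share. The causes were not tested. No detection calls were used, so dim members (Il11, Osmr and 1 probe set each of Lif, Il6st and Lifr) may lie near background, which was not tested.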
